A study of Homo sapiens with 12 samples.

Results

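Human keratinocytes in which PHGDH had been lowered with siRNA were compared with control-siRNA keratinocytes after both had been stimulated for 24 h with a treatment that the labels call Mix. The comparison held 6 of the 12 libraries of the series, PHGDH-siRNA+Mix 1 to 3 and Control-siRNA+Mix 1 to 3, and tested each gene whose mean reached 0.5 FPKM in either group, which left 13825 of 58735 genes. FPKM is fragments per kilobase of gene length, scaled to the depth of the library. All cells were HaCaT, an established line of immortalised keratinocytes that grows without the layered structure of epidermis. All had been transfected with siRNA, so by their labels the groups compared differed in the siRNA. Whether they also differed in a batch of transfection, culture or library preparation is not stated in the sources used here. The other 6 libraries, Control-siRNA and PHGDH-siRNA without Mix, serve here as a second reading of the same siRNA contrast. Both readings come from 1 fit that shares its estimate of spread, so they are not independent. The sources used here do not give the contents of Mix, the siRNA sequences or the time from transfection to harvest.

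PHGDH encodes phosphoglycerate dehydrogenase, which takes 3-phosphoglycerate out of glycolysis and starts the synthesis of serine. PSAT1 and PSPH complete that route, and SHMT1 and SHMT2 pass a carbon of serine to folate, from where it serves nucleotide and methyl group synthesis. Keratinocytes exposed to inflammatory cytokines are known to release chemokines, IL-1 and IL-36 family cytokines and antimicrobial proteins of the S100 and defensin families. Some of the gene groups below hold such genes.

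The 6 libraries with mix held 17954610 to 20901128 reads as recovered from the FPKM values. All 12 keratinocyte markers, among them KRT5, KRT14 and TP63, passed the filter. Some markers of other lineages were listed at 0 in all 6 libraries with mix. They were 1 of 10 for fibroblasts (DPT), 1 of 7 for melanocytes (TYR) and 2 of 7 for endothelium (PECAM1 and KDR). For leukocytes they were 5 of 11, among them PTPRC, CD3D, CD1A and CD207. The melanocyte markers summed to 0.754 to 0.956 FPKM with control siRNA and 0.934 to 1.11 FPKM with PHGDH siRNA. The endothelial markers summed to 0.196 to 0.44 and 0.283 to 0.412 FPKM. Summed over the 11 leukocyte markers the level was 6.10 to 6.88 FPKM with control siRNA and 2.88 to 4.40 FPKM with PHGDH siRNA, and the 10 fibroblast markers summed to 0.712 to 0.978 and 1.45 to 1.49 FPKM. The largest leukocyte term was LAPTM5, a lysosomal membrane protein, at 3.83 ± 0.0861 against 2.37 ± 0.136 FPKM (SD, n = 3 libraries, as throughout). Replicate 2 of both PHGDH-siRNA groups stood apart from the other libraries, with mitochondrial rRNA at 0.708% and 0.740% of reads against 0.249% to 0.358% elsewhere. The median SD of a gene's log2 value was 0.0957 within Control-siRNA+Mix and 0.256 within PHGDH-siRNA+Mix. Results are therefore given with and without the replicate 2 pair. No label says whether replicates were grown as separate cultures. The p-values thus reflect library-to-library spread alone, which may be technical, and an exact permutation test of 3 against 3 cannot go below p = 0.1. In such bulk RNA, fewer cells of a kind and less RNA per cell cannot be told apart.

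PHGDH itself was lower under its siRNA. The gene (ENSG00000092621, hg38 chr1:119648411-119744226, plus strand) measured 31.9, 31.2 and 26.6 FPKM in the Control-siRNA+Mix libraries and 19.1, 13.3 and 11.5 FPKM in the PHGDH-siRNA+Mix libraries. The highest knockdown library lay below the lowest control library, and the means, 29.9 ± 2.88 and 14.6 ± 3.96 FPKM, differed 2.05-fold. The log2 change of FPKM + 1 was -1.01 (SE 0.207), which did not pass the test across all genes (limma, adjusted p = 0.191, threshold 0.05; without the replicate 2 pair -0.96, adjusted p = 0.135). All log2 changes below are on this FPKM + 1 scale, which understates changes of genes at a few FPKM.

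With mix, 3 genes changed under PHGDH siRNA: SEMA7A and ARID3B rose and ACOD1 fell. They were 0.0217% of the genes tested, with 2 higher (0.0145%) and 1 lower (0.00723%). At an unadjusted p under 0.05 there were 832 genes (6.02%), 426 higher (3.08%) and 406 lower (2.94%). The 3 and 3 libraries did not overlap for 2044 genes (14.8%), 1007 higher (7.28%) and 1037 lower (7.50%). No gene passed when the 6 libraries with mix were fitted alone (adjusted p = 0.102 for SEMA7A and 0.456 for the others) or with a block for the replicate number (adjusted p = 0.104 for all 3). None of the 3 passed when any single Control-siRNA+Mix library was left out (adjusted p = 0.0717 to 0.242), ARID3B missed without PHGDH-siRNA+Mix replicate 1 or 2 (0.104 and 0.0502), and ACOD1 missed without replicate 3 (0.0605) and with voom on recovered reads (0.158). With a pseudocount of 0.1 SEMA7A passed (0.0367), and ARID3B and ACOD1 did not (0.0581 and 0.285).

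SEMA7A (ENSG00000138623, hg38 chr15:74409289-74433958, minus strand) encodes semaphorin 7A, a semaphorin held on the cell surface by a lipid anchor that signals through integrins and plexin C1. It measured 11.6, 12.5 and 11.6 FPKM with control siRNA and mix, and 49.1, 39.2 and 36.3 FPKM with PHGDH siRNA and mix. All 3 knockdown libraries lay far above all 3 controls, and the library that stands apart, replicate 2, was the middle one among them. The means were 11.9 ± 0.543 and 41.5 ± 6.68 FPKM, 3.48-fold apart (log2 change 1.71, SE 0.18, limma adjusted p = 0.0182; without the pair 1.74, adjusted p = 0.0158). Among the 23 tested semaphorins, plexins and other SEMA7A receptors it alone was called, and the median change of that list was -0.0044.

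ARID3B (ENSG00000179361, hg38 chr15:74541177-74598131, plus strand) encodes a DNA-binding protein with an AT-rich interaction domain. Its level was 4.22, 4.25 and 4.01 FPKM in the controls and 10.1, 8.81 and 7.43 FPKM under PHGDH siRNA. The groups were again fully separate, at 4.16 ± 0.132 and 8.77 ± 1.31 FPKM (log2 change 0.91, SE 0.114, limma adjusted p = 0.0307; without the pair 0.90, adjusted p = 0.0276). A stretch of 13.8% of its transcript sequence, counted in runs of 50 bases, also occurs in AL138799.1, which lay at 0.343 to 0.676 FPKM in these libraries. Of the 13 ARID family genes tested, no other was called.

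SEMA7A and ARID3B are neighbours on the long arm of chromosome 15, with 107218 bases between them. The tested genes in this gap stayed close to their control levels or overlapped with them: UBL7, a ubiquitin-like protein, was at 22.9 ± 1.10 and 22.8 ± 0.872 FPKM (log2 change -0.01, limma adjusted p = 0.996), and UBL7-AS1, its antisense transcript, at 1.99 ± 0.309 and 1.48 ± 0.248 FPKM (-0.27, adjusted p = 0.914). Beyond ARID3B, CLK3 stood at a log2 change of 0.05, EDC3 at -0.07 and CSK at -0.08. CYP1A1, a xenobiotic-metabolising cytochrome, measured 1.32, 1.25 and 1.12 FPKM in the controls and 0.779, 0.535 and 0.362 FPKM in the knockdown libraries (-0.52, limma adjusted p = 0.698). On the other side of SEMA7A, the non-coding LINC02255 measured 0.577, 0.273 and 0.264 FPKM in the controls and 0.776, 1.36 and 0.815 FPKM in the knockdown libraries, higher without overlap (0.53, limma adjusted p = 0.669). STRA6, which encodes the receptor for retinol-binding protein, overlapped at 0.553 ± 0.102 and 0.641 ± 0.439 FPKM (0.05, limma adjusted p = 0.984). These are the 10 genes tested within 200000 bases on either side, and SEMA7A and ARID3B were the ones called. The window was chosen after their calls were known.

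ACOD1 (ENSG00000102794, hg38 chr13:76948497-76958642, plus strand) encodes the enzyme that makes itaconate from cis-aconitate, best known from activated macrophages. In Control-siRNA+Mix it measured 6.96, 6.87 and 8.57 FPKM, and in PHGDH-siRNA+Mix 1.89, 3.33 and 2.76 FPKM. The highest knockdown library reached less than the lowest control, and the means of 7.47 ± 0.953 and 2.66 ± 0.723 FPKM differed 2.81-fold (log2 change -1.22, SE 0.149, limma adjusted p = 0.0307; without the pair -1.35, adjusted p = 0.0118). Without mix the transcript was at 0 in 5 of 6 libraries and at 0.0832 FPKM in the sixth, so its difference could be read only in the stimulated cells. The summed leukocyte markers were also lower in the PHGDH-siRNA+Mix libraries (above), and their part in this result was not tested.

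The 250 bases upstream of the RefSeq start (GRCh38.p14) are printed for SEMA7A and ACOD1 because these genes had the largest called changes and moved in opposite directions. Capitals mark matches to the motifs named after them.
SEMA7A, chr15:74433959-74434208, minus strand: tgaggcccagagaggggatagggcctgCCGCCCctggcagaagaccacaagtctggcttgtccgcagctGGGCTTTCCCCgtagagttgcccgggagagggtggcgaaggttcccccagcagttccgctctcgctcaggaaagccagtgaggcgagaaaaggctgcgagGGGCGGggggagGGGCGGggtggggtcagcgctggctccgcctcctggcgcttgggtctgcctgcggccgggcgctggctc
ACOD1, chr13:76948261-76948510, plus strand: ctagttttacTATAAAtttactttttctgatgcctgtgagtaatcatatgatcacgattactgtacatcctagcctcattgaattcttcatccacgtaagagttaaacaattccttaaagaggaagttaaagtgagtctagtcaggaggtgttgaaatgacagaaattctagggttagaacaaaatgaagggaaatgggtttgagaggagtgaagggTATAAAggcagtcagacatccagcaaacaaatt
The SEMA7A stretch holds 3 GC boxes (GGGCGG, either strand, in 42.6% of 35116 RefSeq promoters of this length) and overlapping matches to the loose NF-kappaB letters GGGNNNNNCC at 181 to 171 bases before the start (either strand, 54.4% of promoters). The ACOD1 stretch holds 2 TATA boxes (TATAAA on the gene's strand, in 6.80% of promoters), of which the nearer lies 33 to 28 bases before the start. Neither stretch holds the AP-1 letters TGANTCA (6.57% of promoters), the STAT letters TTCNNNGAA (6.57%) or the C/EBP letters TTNNGCAA (9.05%), all searched on both strands. The RefSeq start of ACOD1 lies 14 bases inside the gene as the deposited table places it. No ARID3B promoter is printed.

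**Figure D1:**
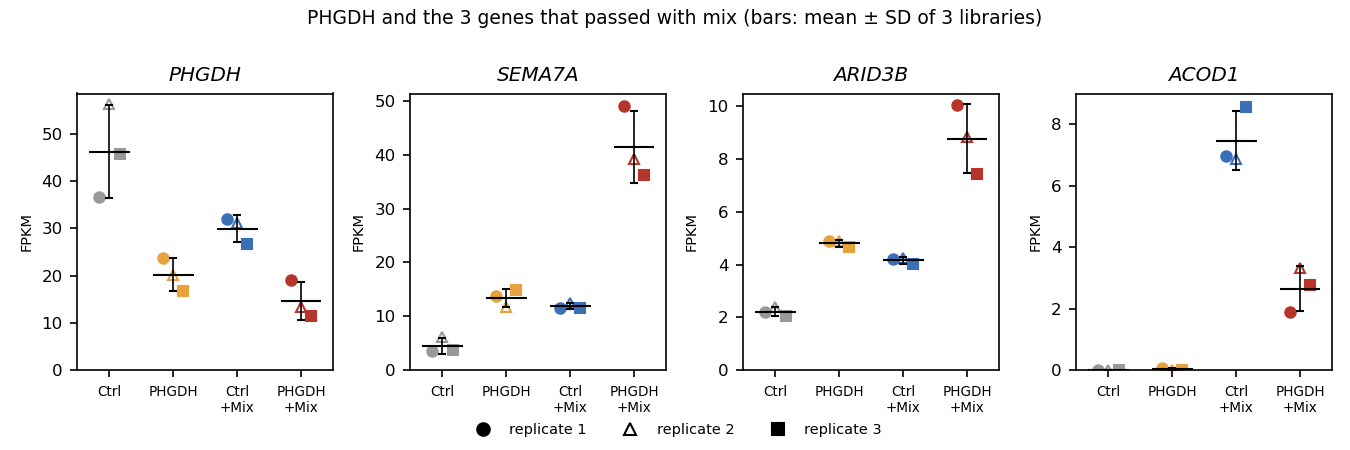
FPKM of PHGDH, SEMA7A, ARID3B and ACOD1 in all 12 libraries on linear axes that start at 0, by siRNA and mix; symbols stand for the replicate number, bars for the mean ± SD of 3 libraries. With mix, SEMA7A lies at 36.3 to 49.1 FPKM under PHGDH siRNA and at 11.6 to 12.5 FPKM under control siRNA, and ACOD1 is near 0 in every library without mix.

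Below the threshold, the genes closest to it were SSRP1 and S100A7, which were lower, and EMP1, which was higher (limma adjusted p = 0.0709 for all 3). EMP1, an epithelial membrane protein, measured 21.7, 20.8 and 22.98 FPKM in the controls and 39.8, 35.1 and 37.3 FPKM under PHGDH siRNA (log2 change 0.75). SSRP1, a subunit of the histone chaperone FACT, measured 54.1, 52.8 and 49.6 FPKM and then 29.8, 32.6 and 28.7 FPKM (-0.76). Neither gene overlapped between the groups, and both passed without the replicate 2 pair (adjusted p = 0.0158 and 0.0276).

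Other higher genes among the lowest p-values included AKAP12, a scaffold for protein kinase A, at 1.40 ± 0.209 against 3.49 ± 0.625 FPKM, and PTHLH, which encodes parathyroid hormone-like hormone, at 14.4 ± 0.135 against 26.6 ± 5.44 FPKM. IL13RA2, the decoy receptor for IL-13, stood at 9.37 ± 0.148 against 16.1 ± 2.73 FPKM, and PRR9, a proline-rich gene of the epidermal differentiation complex, at 2.46 ± 0.909 against 11.6 ± 7.16 FPKM. CD274, which encodes the immune checkpoint ligand PD-L1, measured 3.56, 3.75 and 4.27 FPKM in the controls and 9.81, 8.27 and 6.41 FPKM in the knockdown libraries, and MMP2, a gelatinase, 9.61, 9.71 and 9.49 against 14.3, 14.7 and 13.2 FPKM. These genes and DCBLD1 were named among genes higher without overlap, so that trait was a condition of naming (met by 7.28% of all genes). None passed with all libraries (limma adjusted p = 0.0832 to 0.177). Without the pair AKAP12 (limma adjusted p = 0.0158), PTHLH and PRR9 (0.0318 for both) and IL13RA2 (0.0480) passed, and CD274 (0.0673), MMP2 and DCBLD1 (0.0574 for both) did not.

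On the lower side, CDCA8, a subunit of the chromosomal passenger complex, measured 27.6, 29.04 and 28.1 FPKM in the controls and 11.8, 19.0 and 12.5 FPKM under PHGDH siRNA (limma adjusted p = 0.0832). BCL2A1, a survival protein of the BCL2 family, stood at 3.33 ± 0.138 against 1.63 ± 0.315 FPKM, and TREM2, a lipid-sensing receptor, at 1.78 ± 0.179 against 0.484 ± 0.164 FPKM. ADAT1, which edits transfer RNA, was at 7.54 ± 0.425 against 4.08 ± 0.596 FPKM, and CSRP2, a LIM domain protein, at 19.1 ± 0.491 against 11.1 ± 1.54 FPKM. CNGB1, a channel subunit, was at 4.15 ± 0.256 against 1.95 ± 0.607 FPKM. For these 6, being lower without overlap was a condition of naming (met by 7.50% of all genes). None passed with all libraries (limma adjusted p = 0.0832 to 0.177), whereas all 6 passed without the pair (limma adjusted p = 0.00109 to 0.0484).

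Among S100 and antimicrobial proteins, the S100 genes S100A7, S100A7A, S100A8, S100A9 and S100A12 were lower in every knockdown library than in any control, and none passed the test with all libraries. S100A7 (ENSG00000143556, hg38 chr1:153457744-153460701, minus strand), an antimicrobial S100 protein known as psoriasin, measured 349, 331 and 395 FPKM in the controls and 148, 95.0 and 169 FPKM under PHGDH siRNA. The knockdown libraries lay far below the controls, with replicate 2 the lowest, and the log2 change was -1.42 (SE 0.208, limma adjusted p = 0.0709), or -1.17 without the pair, where it passed (adjusted p = 0.0318). S100A8 and S100A9, whose products form calprotectin, measured 439, 461 and 478 against 229, 281 and 280 FPKM and 3129, 3022 and 3434 against 1859, 2227 and 1977 FPKM. Neither passed (limma adjusted p = 0.469 and 0.957), and nor did S100A12 at 17.7 ± 3.04 against 9.78 ± 2.10 FPKM (adjusted p = 0.177). S100A7A, which shares 14.2% of the 50-base runs of S100A7, was at 1.44 ± 0.154 against 0.497 ± 0.192 FPKM and passed without the pair (adjusted p = 0.0433).

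DEFB4A and LCN2 did not share this pattern. DEFB4A, a beta-defensin, measured 26.4, 32.1 and 39.8 FPKM in the controls and 32.2, 4.41 and 38.6 FPKM in the knockdown libraries, and LCN2, which binds bacterial siderophores, 1178, 1182 and 1143 against 1250, 324 and 1111 FPKM. In both genes replicate 2 was far below all other libraries and the other knockdown libraries lay near the controls, and the log2 change moved from -0.79 to 0.12 and from -0.61 to 0.01 without the pair. DEFB4A shares 70.4% of its 50-base runs with DEFB4B, so the reads of these copies are uncertain. Of the 16 members tested, 5 were higher (49.4% of all genes) and 11 lower (50.6%) with all libraries, with a median of -0.33. Without the pair 10 were higher (49.6% of all genes) and 6 lower (50.2%), with a median of 0.09. The medians over all genes tested were -0.0029 and -0.00098. The groups were separate and lower for 5 members (7.50% of all genes), and these were the 5 S100 genes given above.

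Chemokines were mostly lower. Of 16 tested, 15 were lower with a median of -0.56, and without the pair 14 were lower with a median of -0.26. CXCL1, a neutrophil attractant, measured 308, 282 and 314 FPKM in the controls and 178, 113 and 229 FPKM under PHGDH siRNA, and CXCL6 42.3, 47.0 and 48.1 against 18.0, 21.2 and 35.1 FPKM. CXCL5 measured 2.46, 1.78 and 3.29 against 0.649, 0.0426 and 1.45 FPKM. These 3 neutrophil attractants were separate between the groups, and none passed (limma adjusted p = 0.313 to 0.575). They were named among the lowest raw p-values of the list. In the whole list 6 of 16 members were lower without overlap (7.50% of all genes). CXCL8 measured 198, 211 and 264 FPKM in the controls and 220, 64.6 and 218 FPKM under PHGDH siRNA, so that only replicate 2 lay outside the control range, and its log2 change was -0.60 with all libraries and -0.02 without the pair. CCL20, which attracts Th17 cells, was at 3.72 ± 0.774 against 2.57 ± 1.61 FPKM with overlapping groups.

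In the IL-1 and IL-36 family the picture was the opposite. Of 16 genes tested, 11 were higher with a median of 0.24, and all 16 were higher without the pair, with a median of 0.29. IL36G, an IL-36 agonist released by keratinocytes, measured 33.1, 27.0 and 33.1 FPKM in the controls and 116, 50.8 and 85.6 FPKM under PHGDH siRNA. Each knockdown library exceeded every control, but the spread between them was wide, and the change of 1.33 (SE 0.400) passed only without the pair (limma adjusted p = 0.563, and 0.0281 at 1.65 without it). IL36RN, which blocks the IL-36 receptor, was at 0.880 ± 0.0407 against 1.82 ± 0.419 FPKM, the decoy receptor IL1R2 at 22.0 ± 1.14 against 38.1 ± 16.4 FPKM and the receptor IL1R1 at 1.82 ± 0.144 against 2.54 ± 0.190 FPKM. All 3 were separate between the groups and none passed (adjusted p = 0.241 to 0.695). They were named, with IL36G, for the lowest raw p-values of the list. In the whole list 6 of 16 members were higher without overlap (7.28% of all genes). IL1B measured 340, 321 and 348 FPKM in the controls and 572, 112 and 297 FPKM in the knockdown libraries, which lay on both sides of the controls (adjusted p = 0.963).

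The IL-10 family cytokines IL19, IL20 and IL24 lie side by side on chromosome 1, and differed in direction. IL19 measured 11.9, 10.96 and 12.7 FPKM in the controls and 4.83, 1.504 and 6.04 FPKM under PHGDH siRNA, and IL20 5.02, 5.24 and 6.13 against 3.51, 1.52 and 3.86 FPKM. IL24 measured 97.7, 90.5 and 98.1 FPKM in the controls and 164, 88.5 and 177 FPKM in the knockdown libraries. IL19 and IL20 were below the controls in all 3 knockdown libraries, while IL24 was above them in replicates 1 and 3 and just below them in replicate 2. With all libraries none passed (limma adjusted p = 0.191, 0.433 and 0.781). Without the pair IL19 fell by 1.00 (adjusted p = 0.0158) and IL24 rose by 0.83 (adjusted p = 0.0158), and IL20 did not pass (-0.46, adjusted p = 0.103).

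Other cytokines and growth factors were mixed, with 16 of 21 higher and a median of 0.41 (0.32 without the pair, 15 higher). TGFA, a ligand of the EGF receptor, measured 41.2, 39.6 and 43.6 against 71.6, 54.0 and 54.9 FPKM. CSF3, which drives granulocyte production, measured 47.6, 41.6 and 50.5 against 28.1, 21.0 and 40.1 FPKM, and TNF 6.40, 7.56 and 7.08 against 4.18, 4.58 and 5.16 FPKM. These 3 were separate between the groups, TGFA higher and the others lower, and none passed (limma adjusted p = 0.433 to 0.610). In the whole list of 21, 6 members were higher (7.28% of all genes) and 5 lower (7.50%) without overlap. Intracellular regulators were close to all genes: NF-kappaB feedback genes had a median of 0.06 (19 of 30 higher) and JAK-STAT3 targets one of -0.02 (9 of 20 higher). NFKBIZ, a co-regulator of NF-kappaB target genes, was at 15.03 ± 0.635 against 11.3 ± 1.74 FPKM (adjusted p = 0.659) and SOCS3, a STAT3 feedback inhibitor, at 61.0 ± 2.17 against 46.6 ± 15.4 FPKM (adjusted p = 0.963). The receptors of keratinocyte-activating cytokines split evenly, with 7 of 14 higher and a median of 0.0041.

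**Figure D2:**
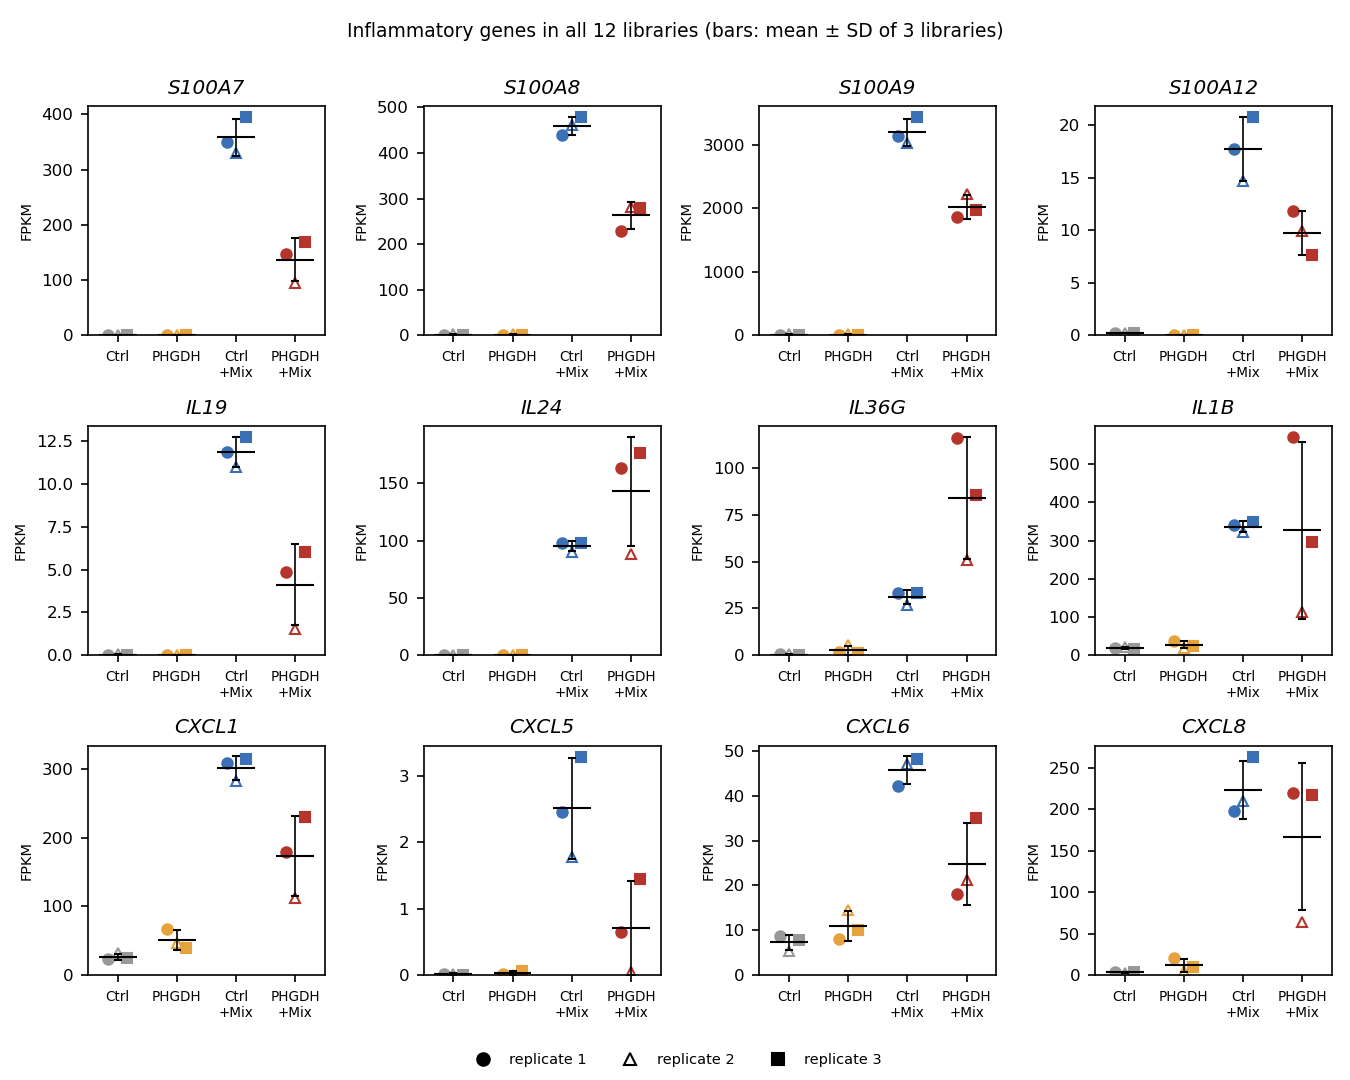
FPKM of 12 S100, cytokine and chemokine genes in all 12 libraries, 1 panel a gene on a linear axis from 0, with symbols for the replicate number and bars for the mean ± SD of 3 libraries. With mix, S100A7 is at 331 to 395 FPKM under control siRNA and 95.0 to 169 FPKM under PHGDH siRNA, IL36G is higher in each knockdown library, and replicate 2 (open triangle) lies lowest for IL24, IL1B and CXCL8.

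Around PHGDH in the pathway no gene passed. PSAT1, which follows it, measured 173, 172 and 173 FPKM in the controls and 216, 58.1 and 120 FPKM under PHGDH siRNA, and PSPH, the last step, 21.9, 21.3 and 19.9 against 25.7, 8.98 and 19.9 FPKM. SHMT2, the mitochondrial enzyme that takes a carbon from serine, measured 106, 99.0 and 90.3 against 134, 48.8 and 93.5 FPKM, and MTHFD2, the next mitochondrial folate enzyme, 37.7, 35.5 and 35.7 against 59.1, 21.2 and 40.4 FPKM. In all 4 genes the controls lay close together while knockdown replicate 1 was the highest of the 6 libraries and replicate 2 the lowest. Their changes did not pass (limma adjusted p = 0.963 to 0.995). Over the 21 tested genes of serine synthesis, glycine and the folate cycle, 10 were higher and 11 lower, with a median of -0.03 (0.02 without the pair). PHGDH and TYMS, thymidylate synthase (6.17 ± 0.128 against 4.91 ± 0.839 FPKM), were the 2 members that lay lower without overlap (7.50% of all genes), and MTFMT, the mitochondrial methionyl-tRNA formyltransferase (4.07 ± 0.151 against 4.56 ± 0.269 FPKM), was the 1 that lay higher (7.28% of all genes; limma adjusted p = 0.963). Among 25 genes that use serine or are linked to it the median was 0.04, and SERINC3, a membrane protein of the serine incorporator family, measured 38.7 ± 1.61 against 26.2 ± 3.95 FPKM with all libraries (log2 change -0.55, limma adjusted p = 0.595). SERINC3 fell without the pair, where the knockdown mean was 24.2 FPKM (-0.66, limma adjusted p = 0.0480).

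The amino acid response, which ATF4 runs when amino acids are scarce, was near all genes with all libraries, with 16 of 30 targets higher and a median of 0.03. Without the pair 29 of 30 were higher with a median of 0.23, and no member passed in either fit. SESN2, an ATF4 and p53 target that restrains mTORC1, shows how the libraries were spread, at 17.7, 17.0 and 18.0 FPKM in the controls and 82.4, 13.1 and 25.0 FPKM in the knockdown libraries. Replicate 1 was far above, replicate 3 above and replicate 2 below every control.

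Genes of DNA replication and mitosis were lower as groups. Of 53 replication and S phase genes, 46 were lower with a median of -0.25, and 20 lay below every control in all 3 knockdown libraries (7.50% of all genes). Of 39 mitosis and G2/M genes, 37 were lower with a median of -0.34, and 14 were separate. Without the pair the counts were 50 of 53 (median -0.36) and 39 of 39 (median -0.55), and 46 and 38 were separate and lower, against 16.0% of all genes. With all libraries no member passed, with 16 replication and 14 mitosis genes lower at a raw p under 0.05 (2.94% of all genes). Members of such a list are transcribed together through the cell cycle, so their counts are not independent.

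MCM2 and MCM4, subunits of the replicative helicase, measured 34.8, 36.4 and 32.4 against 26.9, 25.2 and 25.6 FPKM and 44.0, 41.9 and 42.1 against 29.3, 33.7 and 31.7 FPKM. GINS2 and CDC45, their partners in the active helicase, stood at 14.6 ± 0.967 against 9.71 ± 0.487 FPKM and 18.6 ± 0.210 against 13.7 ± 2.19 FPKM. CCNB1, the mitotic cyclin B1, measured 98.9, 100.2 and 96.1 against 64.4, 80.5 and 71.1 FPKM. The 5 genes were separate between the groups, and with all libraries none passed (limma adjusted p = 0.475 to 0.612).

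CENPA, the centromeric histone, was at 17.6 ± 0.890 against 12.6 ± 0.963 FPKM, MAD2L1, of the spindle checkpoint, at 10.1 ± 0.815 against 6.88 ± 0.714 FPKM, and CKS1B, a partner of cyclin-dependent kinases, at 67.6 ± 6.07 against 47.2 ± 3.54 FPKM. Knockdown replicate 2 went its own way for some proliferation genes: MKI67 measured 8.87, 10.6 and 13.4 FPKM in the controls and 3.47, 20.1 and 7.91 FPKM in the knockdown libraries, where replicate 2 was the highest of all 6. Without the pair 2 members of the mitosis list passed as lower (0.174% of all genes). They were KIF2C, a microtubule-depolymerising kinesin (-0.58, limma adjusted p = 0.0397), and CCNB2, cyclin B2 (-0.57, limma adjusted p = 0.0433), named here for that call. In both, the left-out PHGDH-siRNA+Mix replicate 2 lay above every control. It measured 22.42 FPKM for KIF2C and 36.85 FPKM for CCNB2, where the highest controls were 21.91 and 32.17 FPKM. CDKN1A, the p53 target p21 that halts the cycle, was at 179, 172 and 170 FPKM in the controls and 336, 167 and 253 FPKM in the knockdown libraries (adjusted p = 0.946, and 0.106 without the pair). Of 26 p53 targets 20 were higher (median 0.12, and 0.14 without the pair), none past the test.

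EGF receptor ligands, feedback inhibitors and immediate early genes were higher in 26 of 38 members with a median of 0.12, and in 32 of 38 with a median of 0.43 without the pair. ETS1, a transcription factor downstream of the pathway, measured 20.7, 21.1 and 24.3 against 35.7, 42.2 and 31.1 FPKM, and FOSL1, a subunit of AP-1, 71.5, 63.3 and 61.1 against 167, 86.1 and 91.6 FPKM. Both lay above all controls in each knockdown library without passing (limma adjusted p = 0.278 and 0.730). In the whole list 6 of 38 members were higher without overlap (7.28% of all genes). Without the pair 21 were higher (15.9% of all genes) and 3 lower (16.0%) without overlap. DUSP5, a phosphatase that switches off ERK, measured 13.6, 13.1 and 12.4 against 56.9, 13.3 and 32.3 FPKM. Its replicate 2 lay inside the control range, and DUSP5 passed only without the pair (1.65, adjusted p = 0.0276). It was the 1 member called there, where 0.246% of all genes were called higher. SPRY4, another feedback inhibitor, stood at 1.04 ± 0.0614 against 2.35 ± 0.850 FPKM.

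The list of wound keratins and serpins, which also holds the urokinase genes, had 5 of 18 members higher without overlap (7.28% of all genes) and 2 lower (7.50%). The urokinase PLAU measured 399, 358 and 351 against 872, 664 and 510 FPKM, and its receptor PLAUR 28.4, 25.6 and 24.2 against 43.8, 39.7 and 31.97 FPKM. PLAT, the other plasminogen activator, measured 49.3, 51.9 and 49.2 against 31.2, 16.7 and 31.8 FPKM. The urokinase pair was thus higher and PLAT lower in every knockdown library, and none of the 3 passed (limma adjusted p = 0.311 to 0.335).

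THBS1, thrombospondin 1, was at 38.1 ± 0.861 against 70.9 ± 23.3 FPKM and COL4A1, a basement membrane collagen, at 4.67 ± 0.326 against 6.93 ± 1.10 FPKM, while MMP28, the epidermal metalloproteinase epilysin, was at 31.98 ± 1.44 against 20.8 ± 2.73 FPKM. LAMA3 and LAMB3, laminin chains of the epidermal basement membrane, were higher in each knockdown library, LAMA3 at 72.1 ± 7.03 against 97.5 ± 5.93 FPKM and LAMB3 at 454 ± 15.5 against 754 ± 191 FPKM. None of these passed (adjusted p = 0.330 to 0.802). The matrix and protease list as a whole had 20 of 39 higher and a median of 0.02, with 7 higher and 3 lower without overlap. The basal and adhesion list had 21 of 29 higher and a median of 0.15 (-0.0051 without the pair), with 6 higher and 3 lower without overlap. Over all genes tested, 7.28% were higher and 7.50% lower without overlap.

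Among wound keratins, knockdown replicate 2 was the highest library for KRT16, KRT6A and KRT17. KRT16 measured 25.0, 24.0 and 24.4 FPKM in the controls and 18.0, 104 and 15.9 FPKM in the knockdown libraries, so that replicate 2 alone lay above the controls and the others below. KRT6A, at 1038, 1060 and 994 against 1063, 1596 and 1043 FPKM, shares 29.1% of its 50-base runs with KRT6C. KRT17 measured 550, 500.0 and 507 against 746, 987 and 612 FPKM (limma adjusted p = 0.939). SERPINB5, maspin, was higher in each knockdown library at 81.9 ± 2.90 against 131 ± 15.4 FPKM (adjusted p = 0.657), and SERPINB4, a squamous serpin, overlapped at 381 ± 59.1 against 302 ± 121 FPKM. With all libraries the list of wound keratins and serpins had 13 of 18 higher and a median of 0.17, and without the pair 11 of 18 and 0.07. Cornification genes had medians of 0.07 and 0.04.

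The remaining lists had no called member with all libraries. NRF2 and aldehyde or oxidant handling genes were lower in 26 of 35 with a median of -0.21, which was -0.02 without the pair. Among them AKR1C2, an aldo-keto reductase that shares 38.1% of its 50-base runs with AKR1C1, measured 54.2, 48.2 and 47.5 against 35.8, 15.8 and 37.0 FPKM. HMOX1, haem oxygenase 1, measured 8.21, 7.24 and 6.64 against 17.1, 9.55 and 11.02 FPKM. They were separate in opposite directions and neither passed (adjusted p = 0.695 for both). Of the 35 members, 1 was higher (7.28% of all genes) and 6 were lower (7.50%) without overlap. Cytosolic ribosomal protein genes were lower in 62 of 75 with all libraries (median -0.09) and higher in 67 of 75 without the pair (median 0.08). The RNA interference machinery, a list kept because the cells carried siRNA, had 6 of 12 higher and a median of -0.0010.

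**Figure D3:**
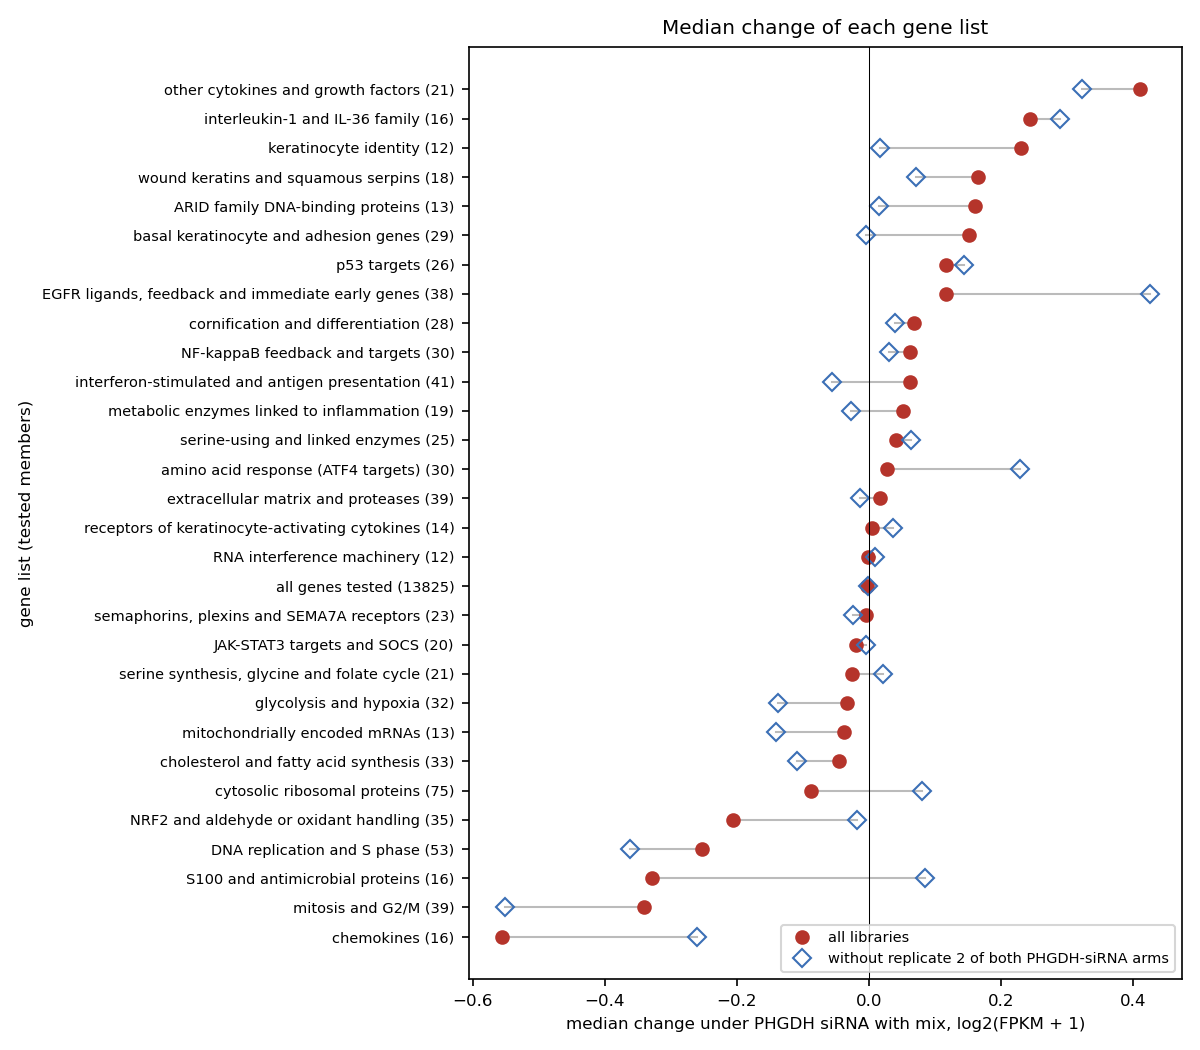
Median log2 change of FPKM + 1 under PHGDH siRNA with mix for each gene list, with the number of tested members in brackets; filled circles use all libraries, open diamonds leave out replicate 2 of both PHGDH-siRNA groups. Mitosis (-0.34 and -0.55) and DNA replication genes (-0.25 and -0.36) stay left of 0 in both, chemokines move from -0.56 to -0.26, and S100 and antimicrobial proteins from -0.33 to 0.09.

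Leaving out replicate 2 of both PHGDH-siRNA groups raised the number of called genes with mix to 58 (0.420% of genes tested), 34 higher (0.246%) and 24 lower (0.174%), and all 3 genes called with every library were among them. These libraries were left out because they stand apart, and 4416 genes (31.9%) were then separate between the groups, 2204 higher (15.9%) and 2212 lower (16.0%). SLC2A3, the glucose transporter GLUT3, had the lowest p, at 6.33, 6.22 and 6.67 FPKM in the controls and 22.3, 11.03 and 21.8 FPKM in the knockdown libraries (1.64 without the pair, limma adjusted p = 0.000695). CDCA8 came next (-1.15, adjusted p = 0.00109). In both genes the replicate left out lay on the same side of the controls as the others, but nearer to them.

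Further genes that rose without the pair were ADAM19, a membrane metalloproteinase (4.93, 5.33 and 4.98 against 10.5, 7.0 and 10.6 FPKM), RAET1L, a stress ligand of the NKG2D receptor (0.853, 0.768 and 0.898 against 2.79, 4.98 and 3.13 FPKM), and FAM222B (6.38, 6.81 and 6.49 against 10.97, 7.33 and 10.2 FPKM). RAET1L shares 29.5% of its 50-base runs with ULBP2, which measured 14.4, 13.2 and 15.1 against 17, 28.3 and 16.7 FPKM. The reads of RAET1L are thus uncertain. ADAM19 overlaps NIPAL4 and FAM222B overlaps ERAL1, which are read at 19.8 and 41.3 FPKM on the other strand. HMGA2, a chromatin protein, measured 10.7, 9.73 and 10.9 against 19.8, 8.82 and 22.7 FPKM, and CEMIP2, a hyaluronidase of the cell surface, 10.4, 10.7 and 12.1 against 21.4, 8.61 and 22.5 FPKM. In these last genes the library left out lay below all controls, opposite to the other knockdown libraries. HMGA2 overlaps RPSAP52, read at 9.67 FPKM on the other strand. CD83, a surface immunoglobulin-like protein, rose as well (0.88, adjusted p = 0.0480), with all 3 knockdown libraries above the controls.

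Genes that fell without the pair included RFWD3, a ubiquitin ligase of the DNA damage response (16.2, 16.9 and 17.2 against 11.1, 12.9 and 9.82 FPKM), and RSU1, a partner of integrin adhesions (17.5, 17.4 and 17.4 against 11.8, 14.6 and 11.7 FPKM). Both were below the controls in all 3 knockdown libraries. FGFR3, a growth factor receptor, measured 4.39, 4.15 and 4.50 FPKM in the controls and 1.60, 13.9 and 2.15 FPKM in the knockdown libraries. Its replicate 2 was the highest of the 6, so the change was -0.90 without the pair and -0.11 with it.

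Of the 34 genes called higher, the PHGDH-siRNA+Mix replicate 2 that had been left out lay above the control range for 19, within it for 5 and below it for 10. Of the 24 called lower it lay below for 18, within for 1 and above for 5. Over all genes tested this library was above the control range for 40.3%, below it for 42.2% and within it for 17.5%. The calls without the pair therefore describe replicates 1 and 3.

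**Figure D4:**
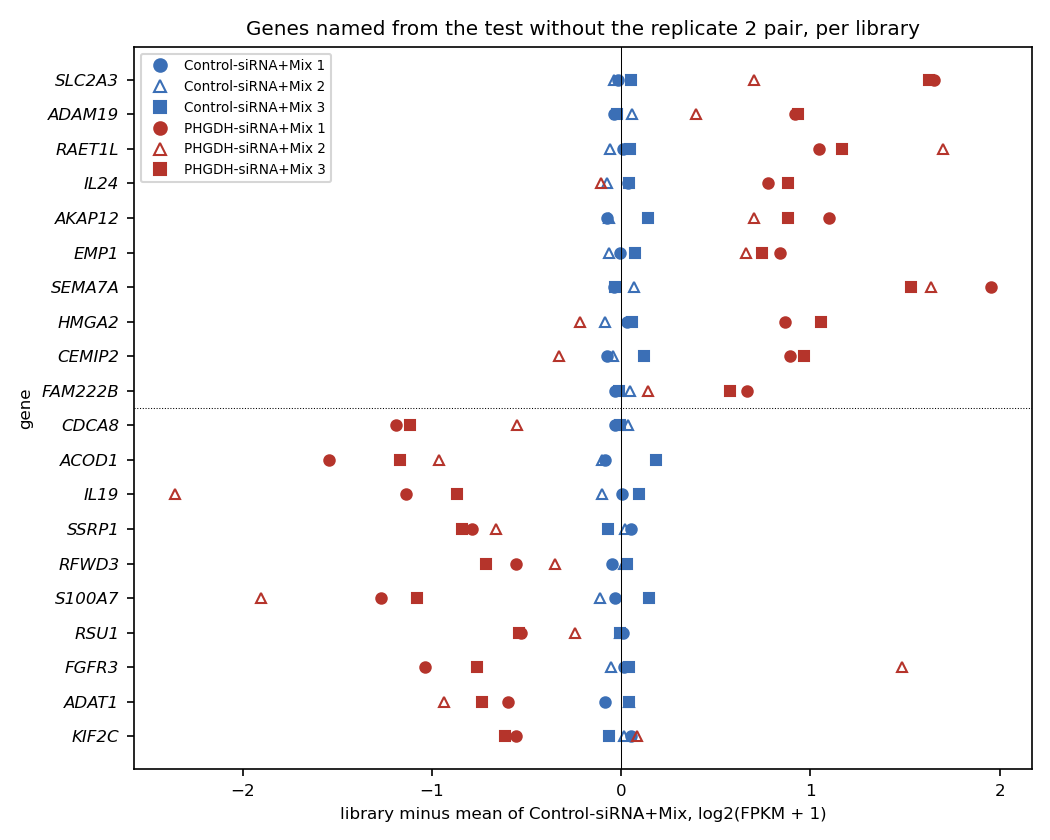
Each library minus the mean of Control-siRNA+Mix on the log2(FPKM + 1) scale for the 10 genes higher and the 10 lower with the lowest p without the replicate 2 pair; blue symbols are control and red symbols PHGDH-siRNA libraries, and the open triangle is replicate 2. The open red triangle falls among or beyond the controls for IL24, HMGA2, CEMIP2, KIF2C and FGFR3, and on the side of the other knockdown libraries for the rest.

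The libraries without mix gave the same contrast in cells that had not been stimulated, with 5 genes called (0.0362%), 2 higher (0.0145%) and 3 lower (0.0217%). SEMA7A was at 3.60, 6.17 and 3.75 FPKM with control siRNA and 13.8, 11.7 and 14.9 FPKM with PHGDH siRNA (log2 change 1.42, limma adjusted p = 0.0348), and ARID3B at 2.22 ± 0.164 and 4.81 ± 0.131 FPKM (0.85, adjusted p = 0.0348). The 3 genes called lower without mix were ALDH3A1, an aldehyde dehydrogenase (10.4 ± 2.75 and 3.10 ± 0.761 FPKM), AKR1B10, an aldo-keto reductase (8.11 ± 0.843 and 3.16 ± 0.219 FPKM), and PADI3, which citrullinates epidermal proteins (6.57 ± 1.29 and 2.17 ± 0.364 FPKM), named for that call. With mix their changes were -0.30, -0.27 and -0.46, and none passed (adjusted p = 0.620 to 0.963). No gene was called without mix by voom, with a filter at 1 FPKM or without any filter. SEMA7A and ARID3B were thus called with and without mix by the test used here, and their interaction, the change with mix minus the change without it, was 0.29 and 0.06 (adjusted p = 1.00 for both). Of the 34 genes called higher with mix without the pair, 31 were above 0 without mix with all libraries (51.6% of all genes) and 19 were separate and higher (4.90%). Of the 24 called lower, 19 were below 0 (48.4%) and 13 were separate and lower (5.00%). The means of these comparisons share no library, but both come from 1 fit with 1 estimate of each gene's spread. SEMA7A had the same SE of 0.18 with and without mix. Genes called with mix were thus partly picked for a small spread in the libraries without mix, and the readings are not independent. Same-numbered PHGDH-siRNA libraries with and without mix also deviated from their group means together (correlations across genes of 0.715, 0.792 and 0.491). These 3 correlations are linked, since deviations from a mean of 3 sum to 0. Replicate 2 deviated most in both groups (mean absolute log2 deviation 0.304 with mix and 0.289 without), so replicates 1 and 3 are not separate evidence of matching. Any common source was not tested.

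The interaction called no gene in limma, with 202 genes at a raw p under 0.05 (1.46%), and in voom on recovered reads it called none either. With a block for the replicate number within each siRNA it also called none (440 at a raw p under 0.05, lowest limma adjusted p = 0.512). The lowest raw p-values were those of ACOD1 (9.03e-05), TNF (0.000400) and MIR7845 (0.000544), each with an adjusted p of 1.00. TNF measured 0.483 ± 0.322 FPKM with control siRNA and 1.24 ± 0.207 FPKM with PHGDH siRNA without mix, and 7.02 ± 0.583 and 4.64 ± 0.496 FPKM with it. It was thus higher under PHGDH siRNA in unstimulated cells and lower in stimulated ones, each time without overlap, a difference of -1.12 that did not pass. CXCL1 had the same form, at 26.9 ± 4.36 and 51.4 ± 14.6 FPKM without mix and 301 ± 17.1 and 173 ± 58.5 FPKM with it. Its interaction was -1.74 (limma adjusted p = 1.00). MIR7845 lies within KLF7, a gene read at 12.3 FPKM on the opposite strand.

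**Figure D5:**
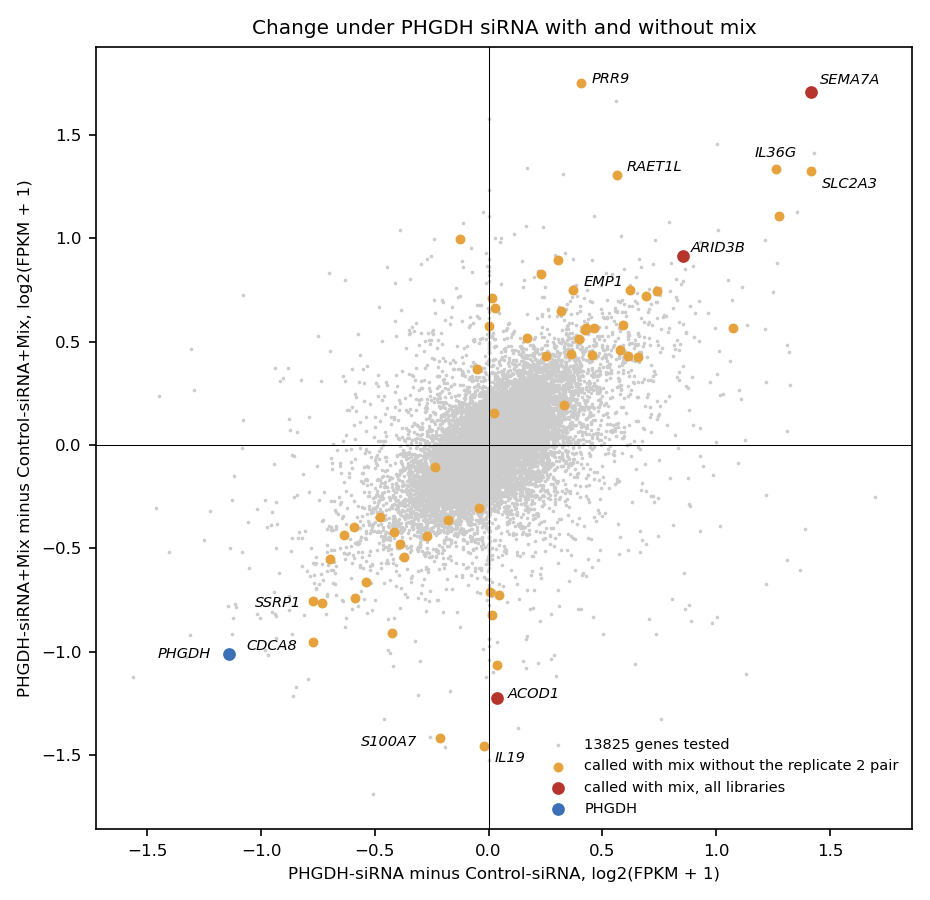
Log2 change of FPKM + 1 under PHGDH siRNA without mix (x axis) and with mix (y axis) for the 13825 genes tested, with all libraries; red points passed with mix, orange points passed with mix without the replicate 2 pair, and the blue point is PHGDH. SEMA7A (1.42 and 1.71) and ARID3B (0.85 and 0.91) lie in the upper right, while ACOD1 (0.04 and -1.22) and S100A7 (-0.21 and -1.42) lie low on the y axis and near 0 on the x axis.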

How the data were processed

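RNA from 12 HaCaT samples had been sequenced after library preparation with a NEBNext Ultra RNA kit, per the labels' protocols. Per the submitters' processing notes, tools were featureCounts 1.5.0-p3, HISAT2 2.0.5 and CASAVA, and the build was hg38. Settings, including strand, do not appear in the sources used here, so reads of overlapping genes cannot be told apart. The authors deposited FPKM, 1 column per sample. Multiplying each FPKM by its gene's length and dividing by the library's smallest step gave whole reads (100% of values up to 200 reads, within 0.05 reads), called recovered reads here.

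Limma 3.58.1 (R 4.3.3; trend and robust options) was fitted to log2(FPKM + 1) of all 12 libraries with a mean per group (8 residual degrees of freedom). Two-sided p-values were Benjamini-Hochberg adjusted over 13825 genes, with 0.05 as the threshold. Gene IDs, not symbols, were the key. The script was tested on simulated data. The 33 gene lists and the members named were chosen with earlier results of these data known. Named were genes past the threshold, the 10 lowest p-values in each direction with no overlap, a mean of 1 FPKM or more in a group and a protein product (with all libraries, and among calls without the replicate 2 pair), up to 4 members per list by raw p, 3 genes of the interaction and a panel of 28 genes. CCNB2, LAMB3, MTFMT, the genes called lower without mix and the chromosome 15 neighbours were added after their values were seen. Same-numbered libraries with mix did not all deviate together across siRNAs (correlations 0.278, -0.0049 and -0.038), so replicate numbers were not taken as pairs for the siRNA contrasts. PHGDH-siRNA libraries with and without mix did (0.715, 0.792 and 0.491), and Control-siRNA libraries did not (-0.308, 0.0474 and -0.123). The interaction was therefore also fitted with a block within each siRNA (4 residual degrees of freedom). The correlations of a pair of groups are linked, since deviations from a mean of 3 sum to 0. Alternatives were another pseudocount, other filters, voom, other scalings, library weights, a replicate block, a fit of 2 groups alone and leaving libraries out. Intervals from counting were not computed, since the spread between libraries was larger than sampling noise in every group.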

Additional observations from a re-analysis of the deposited data

How the results depend on the processing

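With mix, limma called 3 genes with all libraries. A filter at 1 FPKM and rescaling by median-of-ratios size factors also gave 3 calls, and so did voom on recovered reads, where ACOD1 was lost (adjusted p = 0.158) and S100A7 gained (adjusted p = 0.0453). The count was 1 with a pseudocount of 0.1, 7 without a filter, 1880 with sample quality weights (0.132 to 6.63 per library), 58 without the replicate 2 pair, 55 with voom without that pair (44 shared, 75.9% of the limma and 80% of the voom calls), 5 after rescaling to total reads and 0 with the 2 groups alone. Leaving out 1 library gave 0 to 6: 0 without Control-siRNA+Mix replicate 1 or 2, 1 without replicate 3 (MIR6090), 3 without PHGDH-siRNA+Mix replicate 1, 6 without replicate 2 and 5 without replicate 3. With the replicate block, 0 genes were called with mix (851 at a raw p under 0.05; adjusted p = 0.104 for each of the 3), 0 without mix and 0 in the interaction, which also had 0 with a replicate block within siRNA. Without mix (5 calls), the count was 0 without a filter, with a filter at 1 FPKM, with voom and with the 2 groups alone, 1638 with weights, 86 without the pair, 123 with voom without it, and 0 to 2 with 1 library left out. The interaction (0 calls) had 3 calls without a filter and 148 with weights. The cause of these differences was not tested. Rescaling to total reads, voom without the pair and the block within siRNA were chosen after seeing the data. Leaving out the replicate 2 pair also followed from the data, since those libraries stood apart. Log2 changes that turned in sign, without the pair and with voom without it, were those of PSPH (0.10 and 0.11), SHMT2 (0.19 and 0.19), DEFB4A (0.12 and 0.12), LCN2 (0.0130 and 0.0128), IL1B (0.29 and 0.29), KRT16 (-0.51 and -0.53), CLK3 (-0.058 and -0.077) and STRA6 (-0.16 and -0.52). With weights, DEFB4A was at 0.16, CCL20 at 0.062, KRT16 at -0.48, CLK3 at -0.056 and STRA6 at -0.023. With 1 library left out, the ranges were -0.90 to 0.36 for FGFR3, -0.60 to 0.10 for PSPH, -0.53 to 0.19 for SHMT2, -0.30 to 0.42 for MTHFD2, -1.31 to 0.12 for DEFB4A, -0.96 to 0.0130 for LCN2, -0.88 to 0.29 for IL1B, -0.51 to 0.81 for KRT16, -0.90 to 0.22 for MKI67, -0.031 to 0.029 for UBL7, -0.058 to 0.10 for CLK3, -0.12 to 0.031 for EDC3 and -0.16 to 0.20 for STRA6.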
